A study of Mus musculus with 4 samples.

Results

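Tetraspanins are small proteins that cross the membrane several times and gather integrins, immunoglobulin superfamily proteins and proteases into membrane patches. The 7 described here, Cd9, Cd63, Cd81, Cd82, Cd53, Cd37 and Cd151, were taken by gene symbol from the 32285 genes of the count matrices, and all 7 were present. Mouse brown adipose tissue was the source, of which the stromal vascular fraction, meaning the cells left after the fat cells are removed, was profiled by droplet single-cell RNA sequencing of 3′ transcript ends. There were 4 libraries, 1 for each group, each made from pooled mice that the methods describe as male. The WT library came from C57BL6/J mice of 10 weeks on normal chow. The 8-week and 16-week db/db libraries (db/db 8w and db/db 16w in the plots) came from B6.BKS(D)-Leprdb/J mice, which carry a leptin receptor mutation. The methods name another supplier for them than for the WT mice, whereas the list of resources names the same supplier for both. Strain source, age (8 and 16 weeks against 10) and genotype therefore cannot be told apart. The HFD library came from wild-type mice, for which the methods describe a high-fat diet of 10 weeks. Its label gives 10 weeks, whereas the methods start the diet at 10 weeks of age, so the label does not settle the age of the mice. If the mice were older than WT, diet and age cannot be told apart in the ratios of HFD to WT. All mice were fasted before harvest. With 1 library per group there was no replicate check and no test between groups, and the 95% intervals below cover counting error only.

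The 16-week db/db library stood apart from its description. Xist, the RNA of the inactive X chromosome in females, had a UMI in 37.7% of its cells against at most 0.421% in the other libraries, and Y-linked genes had a UMI in 6.10% of its cells against 43.1% to 62.7% elsewhere. A UMI is a molecular identifier that counts 1 captured transcript. Values for 8-week db/db and HFD do not involve that library, and the part of this difference in the 16-week db/db values was not tested. After filters on genes, UMIs and mitochondrial transcripts, 5944 WT, 11648 8-week db/db, 5833 16-week db/db and 5462 HFD cells were kept, with medians of 2733 to 6219 UMIs per cell. The share of barcodes over the mitochondrial limit ran from 1.04% in 16-week db/db to 68.5% in HFD. Any pair of libraries shared at most 97 cell barcodes, and at most 25 among the cells kept.

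Cells were placed in lineages by raw UMIs of marker genes, with no clustering. The macrophage gate (C1qa, C1qb, C1qc, Csf1r, Adgre1, Fcgr1) held 1243 WT, 3096 8-week db/db, 2184 16-week db/db and 1457 HFD cells, and the stromal gate (Pdgfra, Dpt, Lum and other matrix genes) held 4005, 5563, 1114 and 1495 cells. The endothelial gate reached the minimum of 50 cells in all libraries but WT, which had 21. Macrophage-gated cells were then divided by 2 marker lists. The first holds genes of lipid-associated macrophages, LAMs (Trem2, Gpnmb, Spp1, Atp6v0d2, Mmp12, Itgax). The other holds genes of perivascular-type resident macrophages, PVMs (Lyve1, Folr2, Cd163, Cbr2, F13a1, Cd209f). None of the 7 tetraspanins is in a gating list. The LAM subgate held 18 WT cells, 1.45% of the gate, and 29.3%, 69.4% and 79.1% of the macrophage-gated cells of 8-week db/db, 16-week db/db and HFD. The 2 lists overlapped in single cells, which were placed by the larger count. At least 2 UMIs of both were held by 222 WT, 855 8-week db/db, 938 16-week db/db and 675 HFD macrophage-gated cells.

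The 7 genes differ in where their proteins act. Cd9, Cd63 and Cd81 are the usual surface markers of extracellular vesicles. Cd63 lies mainly in late endosomes and lysosomes, Cd81 is a subunit of the B cell coreceptor complex, and Cd9 binds the immunoglobulin superfamily proteins Igsf8 and Ptgfrn. Cd53 and Cd37 are restricted to leukocytes, Cd82 was described as a suppressor of metastasis, and Cd151 binds the laminin receptors among the integrins and is prominent in endothelium. The study purified LAMs by sorting on CD9 and CD36 protein, so the Cd9 transcript in LAMs is not independent of how that work defined the cells.

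All 7 genes are annotated as protein coding and lie on 5 chromosomes in the GRCm38 assembly. Cd9 spans chr6:125460266-125494791 on the minus strand, Cd63 spans chr10:128900989-128912822 on the plus strand and Cd81 spans chr7:143052739-143067934 on the plus strand. Cd37 and Cd151 are also on chromosome 7, Cd82 is on chromosome 2 and Cd53 on chromosome 3. Genes annotated on the opposite strand overlap all of them except Cd63 and Cd53. The promoter windows of the 3 vesicle tetraspanins are shown because Cd9 and Cd63 on the one hand and Cd81 on the other ran in opposite directions between LAM-gated and PVM-gated macrophages, as given below. Each runs from 250 bases before to 50 bases after the RefSeq transcription start in GRCm38.p6, and capitals mark any motif that was searched, on both strands. The motifs were the E-box CACGTG, the site of AP-1 factors TGACTCA, the core of ETS factor sites GGAAGT, the core of the Sp1 site GGGCGG and the TATA motif TATAAA.
Cd9, chr6:125494711-125495010, minus strand: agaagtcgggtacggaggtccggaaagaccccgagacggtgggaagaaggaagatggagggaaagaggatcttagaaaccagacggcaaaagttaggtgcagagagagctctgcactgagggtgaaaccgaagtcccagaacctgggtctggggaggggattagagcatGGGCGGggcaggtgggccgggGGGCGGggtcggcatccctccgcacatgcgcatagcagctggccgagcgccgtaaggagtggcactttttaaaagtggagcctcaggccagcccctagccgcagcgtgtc
Cd63, chr10:128909095-128909394, plus strand: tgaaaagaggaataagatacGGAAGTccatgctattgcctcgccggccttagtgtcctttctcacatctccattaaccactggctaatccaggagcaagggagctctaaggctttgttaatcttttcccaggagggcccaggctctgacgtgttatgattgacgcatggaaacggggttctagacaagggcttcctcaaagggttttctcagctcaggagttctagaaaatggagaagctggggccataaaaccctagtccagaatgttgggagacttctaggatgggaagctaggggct
Cd81, chr7:143052500-143052799, plus strand: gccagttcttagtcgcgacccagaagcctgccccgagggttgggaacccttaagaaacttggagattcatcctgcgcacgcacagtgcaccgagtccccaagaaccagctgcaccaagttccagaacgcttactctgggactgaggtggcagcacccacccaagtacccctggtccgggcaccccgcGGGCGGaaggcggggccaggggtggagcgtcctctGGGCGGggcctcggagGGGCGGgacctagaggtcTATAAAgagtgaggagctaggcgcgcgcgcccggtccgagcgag
The Cd9 window holds GGGCGG 2 times and the Cd81 window 3 times, with 1 TATAAA in the latter. The Cd63 window holds GGAAGT once. It lies inside the annotated gene and not at the gene start, chr10:128900989, so its letters do not describe that start. Among 32851 RefSeq mouse promoter windows of this length, 35.7% hold GGGCGG, 23.8% hold GGAAGT and 13.6% hold TATAAA. The E-box CACGTG, in 7.15% of all windows, and TGACTCA, in 5.20%, are not in these 3 windows. Such matches describe the letters of the window and not bound sites.

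Cd9 was close to absent in the WT macrophage gate and higher in the macrophage gate of all 3 obese groups. Its level in macrophage-gated cells was 10.1 CPM (UMIs per 1000000 UMIs of the gate, 95% interval 8.02 to 12.6) in WT, 211 (205 to 218) in 8-week db/db, 464 (454 to 475) in 16-week db/db and 372 (361 to 384) in HFD. These are log2 ratios to WT of 4.39 (4.07 to 4.72), 5.52 (5.21 to 5.86) and 5.20 (4.89 to 5.54), or 20.9-fold, 46.0-fold and 36.8-fold. The size of these folds depended on the processing: over the alternatives tried the log2 ratios ran from 3.28 to 4.78 in 8-week db/db, from 4.56 to 5.88 in 16-week db/db and from 4.25 to 5.74 in HFD, with 3.28 in 8-week db/db once cells of over 3 times the median depth were left out. The 3 intervals are far from the WT interval, and Cd9 stood at the 99.9th, 99.8th and 99.7th percentile of the log2 ratios of all genes compared. A gene was compared where it reached 20 CPM in either library. Cd9 did so only through the obese group, so nothing is read from its percentile. Transcripts of other lineages were present in the gate. Stromal transcripts in the WT macrophage gate reached 3.13% of their level in stromal cells, which would carry 5.69 CPM of Cd9 with them, beside the 10.1 CPM measured. The same calculation gave 8.18, 0.721 and 3.23 CPM in 8-week db/db, 16-week db/db and HFD, small beside 211, 464 and 372. The folds of Cd9 are thus taken over a WT level of the same order as the carried amount, whose part in it was not tested. The makeup of the gate also differed. LAM-gated cells were 1.45% of it in WT and 29.3%, 69.4% and 79.1% in 8-week db/db, 16-week db/db and HFD. In 8-week db/db they held 3438 of its 3999 Cd9 UMIs. The part of this makeup in the gate ratios of Cd9, Cd63 and the other members was not tested beyond the subgate levels below.

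Cd63 was already expressed in WT macrophages and was 2.5 to 3.6 times as high in the obese groups. Its level was 413 CPM in WT, 1107 in 8-week db/db, 1048 in 16-week db/db and 1475 in HFD, so all 3 obese groups lay above WT and HFD was highest. The log2 ratios to WT were 1.42 (1.37 to 1.48), 1.35 (1.29 to 1.40) and 1.84 (1.78 to 1.89). The HFD comparison has a general offset, since the median log2 ratio of all genes compared was 0.20 there, against 0.06 in 8-week db/db and -0.09 in 16-week db/db.

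Cd81 did not follow Cd9 and Cd63. Its level in macrophage-gated cells was 252 CPM in WT, 210.1 in 8-week db/db, 84.0 in 16-week db/db and 162 in HFD. WT was highest and 16-week db/db lowest, with log2 ratios to WT of -0.26, -1.59 (-1.69 to -1.49) and -0.64. The sums give deep cells more weight, and this mattered for Cd81. With each cell thinned to 1000 UMIs the ratio in 16-week db/db was -0.85 and that in 8-week db/db was -0.01, and without the deepest cells they were -0.81 and 0.16, so neither the 2-fold lower level in 16-week db/db nor the direction in 8-week db/db was kept.

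Cd151, a gene of low level in these cells, was 14.8 CPM in WT, 30.4 in 8-week db/db, 30.7 in 16-week db/db and 47.7 in HFD. Its log2 ratios were 1.04 (0.75 to 1.33), 1.05 (0.76 to 1.35) and 1.69 (1.40 to 1.98), and in both db/db groups the interval reached below 2-fold. The 2-fold call was lost under 5 of 7 alternatives in 8-week db/db and 6 of 7 in 16-week db/db, with the ratio down to 0.65 and 0.60, and was kept in HFD. Cd82 stayed between 14.9 and 17.4 CPM in the 4 libraries, under the limit of 20 CPM for comparison, and the intervals of its ratios to WT all included 0. The leukocyte tetraspanins stayed under a 2-fold difference. Cd53 was 232 CPM in WT, 219.5 in 8-week db/db, 141 in 16-week db/db and 269 in HFD, and Cd37 was 120.3, 101, 97.6 and 110.3 CPM. The lowest Cd53 ratio was -0.72 on the log2 scale in 16-week db/db, while Cd37 lay between -0.30 and -0.13 in all 3 groups.

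Of the 7 genes, 6 reached the limit for comparison in macrophages, and Cd9, Cd63 and Cd151 were at least 2-fold higher than WT in each obese group, Cd151 in the db/db groups only under some of the processing alternatives. Among all genes compared, 6% were at least 2-fold higher in 8-week db/db, 22.4% in 16-week db/db and 14.9% in HFD. At least 2-fold lower was Cd81 in 16-week db/db and no other of the 7. The share of all genes lower by that much was 5.58% in 8-week db/db, 25.5% in 16-week db/db and 11.6% in HFD. A 2-fold change was thus common in 16-week db/db and rarer in 8-week db/db, and Cd9 and Cd151 could enter these counts only through the obese group.

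**Figure D1:**
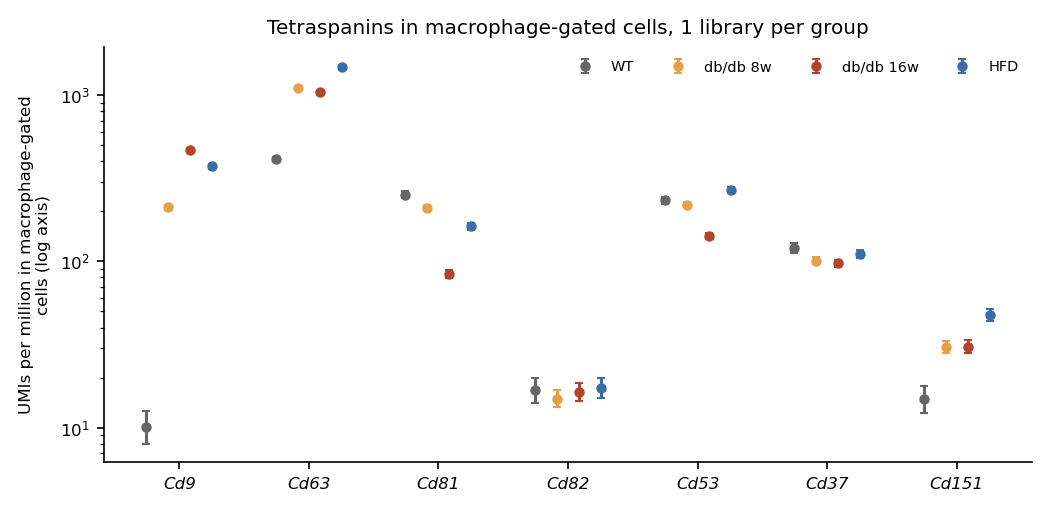
Levels of the 7 tetraspanins in macrophage-gated cells, in CPM on a log axis, 1 point per library with its 95% Poisson interval. Cd9 is at 10.1 in WT and between 211 and 464 in the obese groups, and Cd63 at 413 and between 1048 and 1475, while Cd81 is highest in WT and Cd82 stays between 14.9 and 17.4.

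Within each obese group, LAM-gated and PVM-gated macrophages differed in Cd9 and, in the opposite direction, in Cd81. Cd9 was 399 CPM in the LAM subgate and 50.9 in the PVM subgate of 8-week db/db, 530.2 and 78.7 in 16-week db/db, and 406 and 108 in HFD. Cd63 was 1515 and 781 CPM in the LAM and PVM subgates of 8-week db/db, 1111 and 724 in 16-week db/db, and 1602 and 575 in HFD. Cd81 ran the other way, at 81.5 and 330.5 CPM in 8-week db/db, 43.9 and 374 in 16-week db/db, and 135 and 380.2 in HFD. The LAM subgate was thus the side with more Cd9 and Cd63 and less Cd81 in each of the 3 libraries.

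The LAM to PVM log2 ratios of Cd9 were 2.97, 2.75 and 1.92 in 8-week db/db, 16-week db/db and HFD, and those of Cd63 were 0.96, 0.62 and 1.48. Cd81 was 4.05, 8.52 and 2.81 times lower in LAM-gated cells. Of all genes compared between the subgates, 5.1%, 3.85% and 5.32% were at least 2-fold higher in LAM-gated cells and 9.11%, 15.4% and 8.27% at least 2-fold lower, in the same order of libraries. Past that limit were Cd9 and Cd81 in all 3 libraries, and Cd63 in HFD. Cd151 was 36.4 CPM in the LAM and 25.6 in the PVM subgate of 8-week db/db, 32.8 and 17.8 in 16-week db/db, and 50.0 and 35.9 in HFD, always under a 2-fold difference. Cd53 lay between -0.29 and 0.17 on the log2 scale. LAM-gated cells were also deeper, with medians of 7014 to 8284 UMIs against 3091 to 4342 in PVM-gated cells, and the part of depth in these differences was not tested beyond the thinning given below.

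**Figure D2:**
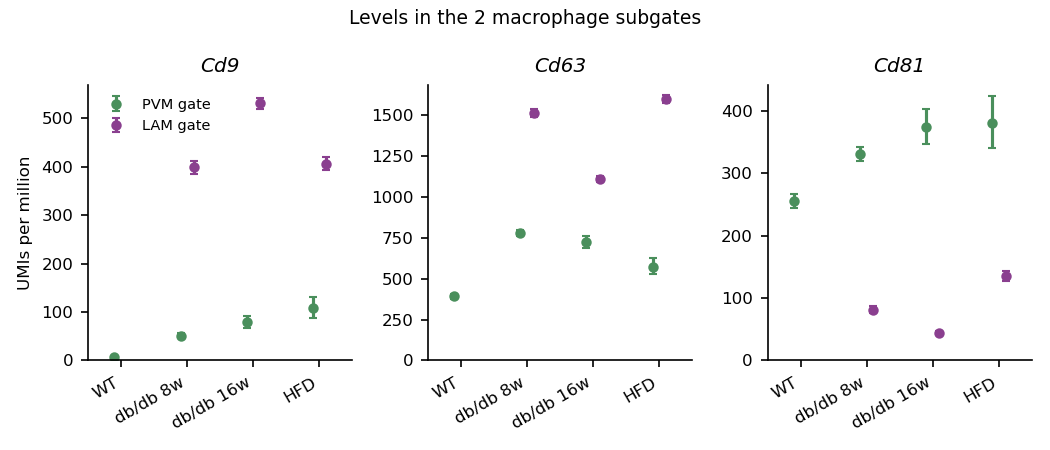
Levels in CPM in LAM-gated and PVM-gated macrophages, by library, with 95% Poisson intervals. The WT library has a PVM point only, because its LAM subgate held 18 cells; Cd9 is higher and Cd81 lower in LAM-gated than in PVM-gated cells of each obese group.

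Levels in PVM-gated macrophages also differed between the groups. Cd9 was 7.15 CPM in the WT PVM subgate, beside 5.78 CPM that stromal transcripts would carry, and 50.9, 78.7 and 108 CPM in 8-week db/db, 16-week db/db and HFD. Stromal transcripts would carry 9.40, 2.66 and 2.55 CPM there. The amount carried from LAM-gated cells, which held 399, 530.2 and 406 CPM of Cd9 in these libraries, was not tested. The log2 ratios to WT were 2.83, 3.46 and 3.91. Cd63 was 393 CPM in WT PVM-gated cells and 781, 724 and 575 in the other 3, with ratios of 0.99, 0.88 and 0.55. Among the 3 obese groups, HFD had the highest measured level of Cd9 and the lowest of Cd63. As the amounts of Cd9 carried into this subgate were not tested, no expression is read from its order or its ratios.

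Cd81 in the PVM subgate was 255 CPM in WT, 330.5 in 8-week db/db, 374 in 16-week db/db and 380.2 in HFD, with log2 ratios of 0.37, 0.55 and 0.58. Inside this subgate Cd81 was therefore above WT, whereas over all macrophage-gated cells, most of which were LAM-gated in 16-week db/db and HFD, it was below WT. The general offset was 0.09, 0.20 and 0.22 here. The tetraspanins at least 2-fold higher than WT in PVM-gated cells were Cd9 in all 3 groups and Cd151 in HFD, at 35.9 against 14.8 CPM, and the shares of all genes compared that were at least 2-fold higher were 2.56%, 18.9% and 12.4%. Both genes were under 20 CPM in the WT subgate and were compared only through the obese group, so nothing is read from their count.

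LAM-gated cells were not alike in the 3 obese groups. Cd81 was 3.08 times lower in those of 16-week db/db than in those of HFD (43.9 against 135 CPM), a comparison in which 21.7% of all genes were at least 2-fold lower. Cd53 was 139.5 CPM in 16-week db/db LAM-gated cells against 270.3 in HFD, and Cd63 was 1111 against 1602 CPM. Cd9 ran the other way, at 530.2 against 406 CPM. The log2 ratios were -0.95 for Cd53, -0.53 for Cd63 and 0.38 for Cd9, beside a median of -0.25 for all genes compared. Cycling cells, meaning those holding 2 or more UMIs of proliferation genes, had less Cd63 than the other LAM-gated cells, at 1291 against 1600 CPM in 8-week db/db and 1005 against 1190 in 16-week db/db, and nearly the same in HFD, at 1561 against 1613 CPM. For Cd9 the cycling cells were lower in 8-week db/db (330.0 against 425 CPM). In 16-week db/db (545 against 519) and HFD (417 against 403) the intervals of cycling and other cells overlapped. The cycling cells were also deeper, with medians of 10779 to 13485 UMIs against 6558 to 7373, and the part of depth was not tested.

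Since a subgate cuts a range of LAM-gene levels, all macrophage-gated cells thinned to 1000 UMIs were also grouped by the number of LAM-list UMIs left in them. Cd9 in 8-week db/db was 43.8 CPM at 0 LAM-list UMIs, 120 at 1, 225 at 2 to 3 and 520.5 at 4 or more. In 16-week db/db the same 4 classes had 133, 202, 338 and 604 CPM, and in HFD 182, 175, 321 and 494 CPM. Cd9 thus climbed with the LAM-list UMIs in both db/db libraries, and in HFD from the class with 1 UMI upward. WT cells with no LAM-list UMI had 8.29 CPM, far under the same class of the obese groups.

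Cd63 climbed across the 4 classes too, from 757 to 1784 CPM in 8-week db/db, from 607 to 1148 in 16-week db/db and from 529 to 1816 in HFD, against 385 CPM in WT cells with no LAM-list UMI. Cd81 declined, from 334 to 78.9 CPM in 8-week db/db, from 293 to 36.0 in 16-week db/db and from 344 to 121 in HFD. In the class with no LAM-list UMI, Cd81 was 252 CPM in WT and higher in each obese group. Depth was equal in all these cells, so the Cd9 and Cd81 patterns were also present at a fixed number of UMIs.

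**Figure D3:**
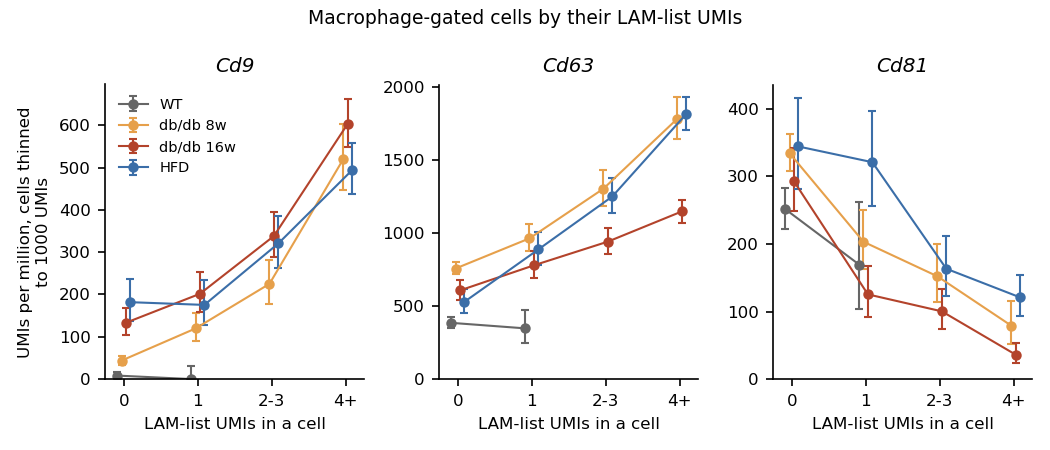
Cd9, Cd63 and Cd81 in macrophage-gated cells thinned to 1000 UMIs, in CPM with 95% Poisson intervals, by the number of LAM-list UMIs in the cell, 1 line per library. In 8-week db/db Cd9 goes from 43.8 to 520.5 and Cd81 from 334 to 78.9 across the classes; WT has the 2 lowest classes only.

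Counted as cells with a Cd9 UMI at 1000 UMIs per cell, the share of macrophage-gated cells was 0.819% in WT, 11.3% in 8-week db/db, 25.6% in 16-week db/db and 25.7% in HFD. Without thinning the shares were 4.26%, 30.4%, 57.2% and 66.2%. T/NK-gated cells of 8-week db/db, which give a level for a lineage with little Cd9, had 2.99% (2 of 67 cells), at a median of 3098 UMIs before thinning, and those of 16-week db/db 9.52% (4 of 42 cells). The WT macrophage share lies below both, and no expression is read from it. These T/NK cells came from other libraries than WT and held macrophage transcripts at 5.35% and 11.9% of their macrophage level, which would carry 11.3 and 55.4 CPM of Cd9 beside 30.5 and 34.9 measured. In LAM-gated cells the thinned shares were 29.0%, 33.2% and 28.0% in 8-week db/db, 16-week db/db and HFD, and in PVM-gated cells 3.59%, 5.59% and 11.3%. The PVM share of 16-week db/db is below the T/NK share of that library and that of 8-week db/db is close to it, so no expression is read from the PVM shares of these libraries.

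Cd36, the fatty acid translocase and scavenger receptor that associates with tetraspanins, was 791 CPM in WT macrophage-gated cells and 1779, 2251 and 3261 CPM in 8-week db/db, 16-week db/db and HFD. At 1000 UMIs per cell, a Cd36 UMI was present in 45.1% of WT, 63.1% of 8-week db/db, 73.5% of 16-week db/db and 85.2% of HFD macrophage-gated cells. Among the cells with a Cd36 UMI, those that also had a Cd9 UMI made up 1.27%, 14.7%, 28.4% and 27.2%. Over all macrophage-gated cells the shares with a Cd9 UMI were 0.819%, 11.3%, 25.6% and 25.7%, so no link between the transcripts is read from these values. Cd36 was thus widespread in WT macrophages, while cells with Cd9 were rare there, and only 7 had both.

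Macrophage-gated cells with a Cd9 UMI held other transcripts at different levels from those without, again at 1000 UMIs per cell. Cd63 was 1544 against 907 CPM in 8-week db/db, 1117 against 823 in 16-week db/db and 1711 against 1078 in HFD. Trem2, the lipid-sensing receptor of LAMs, was 919 against 306 CPM, 1172 against 874 and 1417 against 907. Cd81 was lower in the cells with a Cd9 UMI in 8-week db/db, at 122 against 279 CPM, and in 16-week db/db, at 61.1 against 156. In HFD it was 190 against 223.5 CPM, with overlapping intervals (148 to 239 and 196 to 253).

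Stromal-gated cells held most UMIs of Cd9, Cd63, Cd81 and Cd151 in WT, but not of Cd82, Cd53 and Cd37. Cd9 in stromal-gated cells was 182 CPM in WT, 380.5 in 8-week db/db, 372 in 16-week db/db and 227 in HFD. Cd63 was 538.5, 999, 982 and 1045 CPM, and Cd81 was 312.5, 399, 575 and 534 CPM. All 3 were lowest in WT, and unlike in macrophages Cd81 moved with the others. The log2 ratios to WT in 8-week db/db, 16-week db/db and HFD were 1.06, 1.03 and 0.32 for Cd9, 0.89, 0.87 and 0.96 for Cd63, and 0.35, 0.88 and 0.77 for Cd81. At least 2-fold higher was Cd9 in both db/db groups and none of the 7 in HFD among the 4 that reached 20 CPM, where 3.61%, 13.4% and 8.87% of all genes compared passed.

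Cd151 in stromal cells was 35.2 CPM in WT, 39.7 in 8-week db/db, 21.9 in 16-week db/db and 44.1 in HFD, so 16-week db/db was lowest, at -0.69 on the log2 scale, and the others lay close together. Cd53 and Cd37 were near the floor, at 1.91 to 14.9 and 2.09 to 5.49 CPM. Macrophage transcripts outside the gating list (Lyz2, Tyrobp, Fcer1g, Ctss) reached 0.739%, 2.94%, 2.59% and 4.33% of their macrophage level in the stromal gates of WT, 8-week db/db, 16-week db/db and HFD, which would carry 1.72, 6.45, 3.66 and 11.7 CPM of Cd53 beside the 1.91, 9.84, 8.00 and 14.9 CPM measured. That is a large part of each measured Cd53 level, and no change of Cd53 in stroma is read from it. Cd82 was 0.922, 2.83, 15.1 and 5.49 CPM in the same order. For Cd9 the same share would carry at most 16.1 CPM, in HFD.

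The stromal gate changed in makeup between the libraries. Cells with more UMIs of Pi16, Dpp4, Cd55 and Sema3c, markers of interstitial progenitors, numbered 3068 in WT, 1854 in 8-week db/db, 28 in 16-week db/db and 175 in HFD. Cells with more UMIs of Col15a1, Col4a1, Col4a2 and Sparcl1, markers of cells committed toward fat, numbered 873, 3384, 1076 and 1318. In WT the lists overlapped, with at least 2 UMIs of both in 2424 of 4005 stromal-gated cells. Cd9 was 328 CPM in the Col15a1 Col4a1 subgate and 137 in the Pi16 Dpp4 subgate of WT, 444 and 253 in 8-week db/db, and 238 and 115 in HFD. Cd63 was 671 and 498 CPM in WT, 1194 and 617 in 8-week db/db, and 1109 and 440.5 in HFD. The Col15a1 Col4a1 side was the higher for both genes in all 3 libraries.

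The log2 ratios between these subgates were 1.26, 0.81 and 1.06 for Cd9 and 0.43, 0.95 and 1.33 for Cd63, in WT, 8-week db/db and HFD, where 3.73%, 4.67% and 8.09% of all genes compared were at least 2-fold higher in the Col15a1 Col4a1 subgate. Inside the Col15a1 Col4a1 subgate, the Cd9 ratio to WT was 0.44 in 8-week db/db, 0.18 in 16-week db/db and -0.46 in HFD, smaller than over the whole stromal gate and below WT in HFD. For Cd63 the ratios stayed at 0.83, 0.56 and 0.72, and for Cd81 at 0.32, 0.78 and 0.71. Inside the Pi16 Dpp4 subgate the ratios to WT in 8-week db/db and HFD were 0.89 and -0.26 for Cd9, 0.31 and -0.18 for Cd63, and 0.26 and 0.44 for Cd81. No ratio of these genes inside either subgate reached 2-fold, and Cd63 in HFD was above WT in one subgate and below it in the other.

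Endothelial cells held the highest levels of Cd151 and, in the HFD library, of Cd81. Cd81 in endothelial-gated cells was 507 CPM in 8-week db/db, 602 in 16-week db/db and 636 in HFD, and Cd151 was 120.0, 146 and 104 CPM. The Cd81 interval lay above that of stromal-gated cells in HFD (616 to 656 against 518 to 550.2 CPM) and narrowly in 8-week db/db (409.5 to 622 against 391 to 406), and overlapped it in 16-week db/db. The Cd151 level lay above the stromal and macrophage levels of the same library in all 3. Cd9 was 213, 58.2 and 100.2 CPM and Cd63 was 245.5, 124 and 123 CPM, so these were lower in endothelium than in stroma. The 8-week db/db endothelial gate rests on 80 cells, and that of 16-week db/db on cells with a median of 1030 UMIs.

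Lymphocytes and neutrophils carried the leukocyte members. In T/NK-gated cells of 8-week db/db and 16-week db/db, which numbered 70 and 55, Cd82 was 87.2 and 78.5 CPM, several times the macrophage level, Cd53 was 214 and 140 CPM, and Cd9 was 30.5 and 34.9 CPM, from 7 and 4 UMIs. The 107 neutrophil-gated cells of 8-week db/db had 545 CPM of Cd53 and 209 of Cd37, the highest of any gate for both genes, and also 361.5 CPM of Cd9 and 107 of Cd82. No other library had 50 neutrophil-gated cells.

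**Figure D4:**
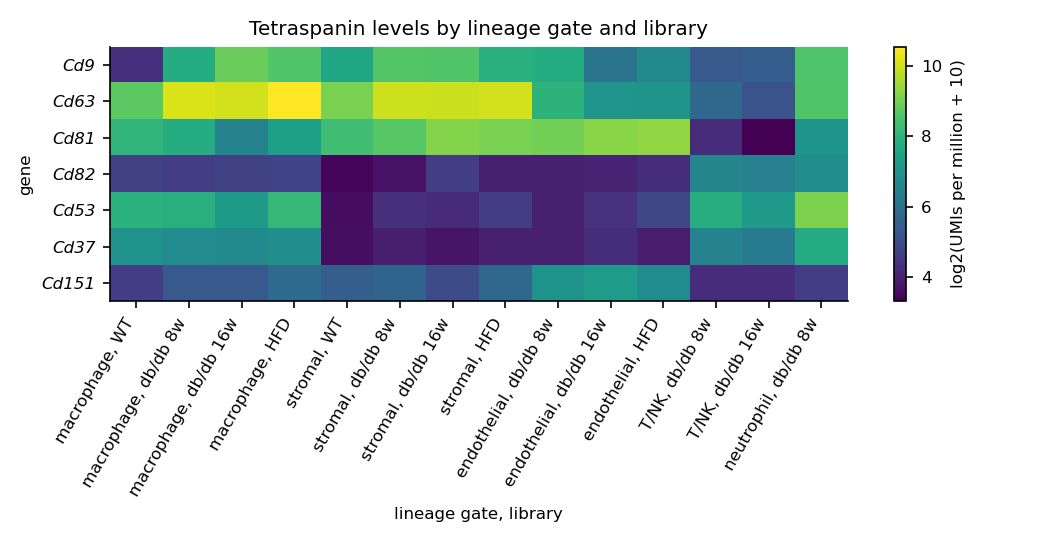
Levels of the 7 tetraspanins in each lineage gate and library with at least 50 cells, as log2 of CPM plus 10, in colour. Cd53 and Cd37 are high in the immune gates alone, Cd151 is highest in the endothelial gates, and Cd9 is low in WT macrophages and in T/NK cells.

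The cells supplying each transcript therefore differed by group. Stromal-gated cells held 91.1% of all Cd9 UMIs in WT, 64.3% in 8-week db/db, 14.3% in 16-week db/db and 23.7% in HFD. Macrophage-gated cells held 1.25%, 25.2%, 68.0% and 52.4%. For Cd63 the macrophage share was 14.6%, 40.1%, 70.8% and 55.7%, and the stromal share 77.4%, 51.3%, 17.4% and 29.2%. Most Cd9 and Cd63 UMIs thus lay in stroma in WT and 8-week db/db and in macrophages in 16-week db/db and HFD. Cd81 UMIs stayed outside the macrophage gate for the most part, with 14.2% to 25.5% inside it, and the endothelial gate held 0.114% of them in WT, 0.578% in 8-week db/db, 19.7% in 16-week db/db and 30.5% in HFD. These shares depend on how many cells of each lineage were captured, and over a whole library fewer cells of a type and less RNA per cell cannot be told apart.

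**Figure D5:**
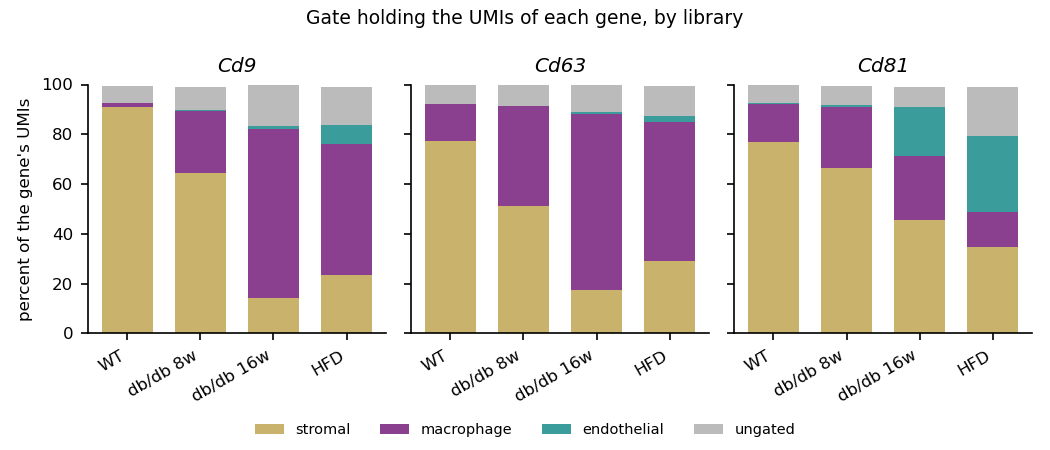
Percent of the UMIs of Cd9, Cd63 and Cd81 that lay in each gate, by library, over all cells kept, as stacked bars that start at 0. For Cd9 the stromal part goes from 91.1% in WT to 14.3% in 16-week db/db as the macrophage part goes from 1.25% to 68.0%.

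Other tetraspanins were mostly low in macrophages. Beside the counts of the lists below, the shares of all genes compared were 6%, 22.4% and 14.9% at least 2-fold higher and 5.58%, 25.5% and 11.6% at least 2-fold lower in 8-week db/db, 16-week db/db and HFD. In every list, a gene under 20 CPM in WT could count as higher only through the obese group. Of 18 further family members outside the protease-regulating group, 4, 4 and 5 reached 20 CPM in 8-week db/db, 16-week db/db and HFD comparisons with WT. Tspan32, a leukocyte tetraspanin, was at least 2-fold lower in all 3, at 40.8 CPM in WT and 16.5, 5.62 and 6.69 CPM in the others. Tspan4, known from migrating cells that leave membrane trails behind them, was 25.4 CPM in WT and 37.3, 72.7 and 57.4 CPM in the others, at least 2-fold higher in 16-week db/db and HFD. Of 6 members of the group that steers the protease Adam10, 4, 3 and 4 reached the limit in 8-week db/db, 16-week db/db and HFD. Among these, 1 was at least 2-fold higher in 8-week db/db, 0 in 16-week db/db and 2 in HFD. Tspan14, at 49.1 CPM in WT and 24.3 in 16-week db/db, was the 1 that was lower.

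Of 11 tetraspanin partners analysed, 8, 9 and 9 reached the limit in the 3 comparisons. Of these, 2, 5 and 5 were at least 2-fold higher and 0, 2 and 1 lower, with median log2 ratios of 0.58, 1.12 and 1.06 beside 0.06, -0.09 and 0.20 for all genes compared. Igsf8, the direct Cd9 and Cd81 partner, was 24.9 CPM in WT and 57.3, 54.4 and 52.0 CPM in 8-week db/db, 16-week db/db and HFD, so it was about equally high in the obese groups. The list also holds Cd36, already described.

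Few genes of vesicle formation or of the lysosomal membrane differed by 2-fold. Of 14 genes of vesicle formation, 12 reached the limit in each comparison, 0, 1 and 1 were at least 2-fold higher and 0, 1 and 1 lower, and the medians were 0.16, 0.14 and 0.21 beside 0.06, -0.09 and 0.20 for all genes compared. Smpd3, a sphingomyelinase of the vesicle pathway, had log2 ratios of 0.37, 1.19 and 1.86, Tsg101 of the sorting complex on endosomes 0.49, 0.95 and 0.87, and Sdcbp, the syntenin gene, -0.17, -0.64 and -0.07. Smpd3 was the 1 higher gene in 16-week db/db and HFD. At 19.2 CPM in WT, it was compared only through the obese group, so nothing is read from that count. Of 7 genes of late endosome and lysosome membrane, 1 was at least 2-fold higher, Cd68 in HFD at 1.05, and none was 2-fold lower. Their medians were -0.21, -0.14 and -0.24 beside the same values for all genes, and Lamp2, a main protein of that membrane, was at -0.25, -0.84 and -0.41.

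Over the 14 points given by lineage gate and library with at least 50 cells, the genes whose log2 levels followed each tetraspanin most closely were found among 8720 candidates. The points share libraries and differ in lineage, so the correlations mostly describe lineage patterns and carry no test. Cd9 was followed by Ilk (r = 0.90), Ttyh2, Anxa2, Gde1 and Flna, and Cd63 by Myof (r = 0.96), Ptprs, Plxnb2, Mmp19 and Pmp22. For Cd81 these were App (r = 0.96), Pink1, Ifitm3, Sash1 and Dock1, and for Cd151 Mrtfb (r = 0.96), Map4k3, Eng, Mgll and Stx3. Cd53 and Cd37 were each among the closest of the other, with r = 0.99 between them. Vav1 (r = 0.99), Cd84, Fyb and Arhgdib also followed Cd53, and Gcnt1, Ptpn6, Cd84 and Vav1 followed Cd37. Cd82 was followed by Hmgb2 (r = 0.95), Limd2, Armc7 and Rbm38. Between the 7 themselves, Cd9 and Cd63 had r = 0.72, Cd81 and Cd151 0.71, and Cd81 and Cd82 -0.80.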

How the data were processed

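The authors deposited filtered 10x matrices of raw UMI counts per gene and cell, mapped to mm10. The labels name Cell Ranger 7.1.0 and the file headers 6.0.0. The study's limits were applied to cells, so that genes detected lay between 250 and 6000, UMIs between 500 and 30000, and mitochondrial UMIs below 15%. A cell entered a lineage with at least 3 UMIs from at least 2 of its markers and at least 70% of its UMIs over 10 marker lists, and a subgate with at least 2 UMIs of its list and more than of the opposing list. Gates under 50 cells were given no level. No doublet caller was run, so cells with UMIs of 2 lineages are limited only by the gate, and 5.07% to 15.1% of macrophage-gated cells lay near the subgate limit.

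UMIs were summed over gated cells and scaled to 1000000 UMIs of the gate (CPM) with exact Poisson intervals. Ratios have exact conditional binomial intervals. These cover counting error only, and UMIs at 3′ ends do not scale with transcript length. With 1 library per group no test was made. A difference was counted where the fold was at least 2 among genes at 20 CPM or more in either library, gating markers left out, with counts of 0 set to a floor of 3. Thinning drew 1000 UMIs per cell without replacement, and shallower cells were left out (22 WT, 255 8-week db/db, 76 16-week db/db and 0 HFD macrophage-gated cells). Named genes were all 7 tetraspanins and, from each other list, the 2 genes with the highest and the 2 with the lowest smallest log2 ratio to WT in macrophage-gated cells that kept 1 sign in all 3 obese groups. Tspan14 and Cd68 are further named where a count of 1 needed it. Likeness was Pearson's r of log2(CPM + 10), and the 5 closest genes were named, except 1 that is not reported here. The tetraspanins and lists were chosen with earlier results of these data known, and the lists of transcripts outside the gates were chosen after the values were seen. The ratio and its interval were tested on simulated data. Python 3.11.15, numpy 2.4.6, scipy 1.17.1, pandas 2.3.3 and matplotlib 3.10.9 were used. Gene positions came from GENCODE for GRCm38 (32158 of 32285 identifiers matched) and promoters from RefSeq (7 of 7 genes). Protein sequences were not used here.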

Additional observations from a re-analysis of the deposited data

Results flagged for a closer look

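Cd151 in stromal-gated cells had a log2 ratio to WT of 0.17 in 8-week db/db and of -0.69 in 16-week db/db. It was picked out because the same contrast had opposite signs at the 2 ages. With 1 library per group the difference was not tested, and the 16-week db/db library is the one with the high share of cells with Xist.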

How the results depend on the processing

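In macrophage-gated cells the ratios of Cd9 and Cd63 to WT stayed above 2-fold in all 3 obese groups under the alternatives tried. For Cd9 in 8-week db/db, 16-week db/db and HFD, a marker purity of 50% gave 3.92, 5.05 and 4.62, a purity of 90% gave 4.78, 5.88 and 5.74, and log2(CPM + 10) gave 3.46, 4.56 and 4.25. Leaving out cells over 3 times the median depth gave 3.28 in 8-week db/db and 4.59 in 16-week db/db for Cd9, and 1.12, 1.03 and 1.68 for Cd63. The mean over cells gave 4.07 for Cd9 in 8-week db/db and 1.35, 1.24 and 1.69 for Cd63. Without the mitochondrial limit Cd63 was 1.51, 1.46 and 1.73, and at a purity of 90% it was 1.90 in HFD. Cd151 was below 2-fold under 5 of 7 alternatives in 8-week db/db and 6 of 7 in 16-week db/db. In 16-week db/db Cd81 was -0.81 without the deep cells, -0.79 as a mean over cells and -0.85 when thinned. Cd53 in stromal-gated cells of 16-week db/db was -0.51 when thinned, against 2.07, the 1 reversed value; the cause was not tested. Over 36 other results and 252 values, the sign was kept in 237 and changed in 15, and a 2-fold call was lost in 28 and gained in 8. No paired analysis was possible because each group has 1 library, so no replicate could be left out either. Depth limits the genes near 10 CPM, such as Cd9 in WT macrophages, and the endothelial gate of 8-week db/db.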
